A study of Mus musculus with 12 samples.

Results

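Glucocorticoid-induced target genes are the genes that the glucocorticoid receptor switches on when stress hormone reaches a cell. The set described here holds 10 of the 54429 entries of the deposited count table, chosen by gene symbol: Fkbp5, Sgk1, Tsc22d3, Zbtb16, Errfi1, Ddit4, Pdk4, Plin4, Klf9 and Nfkbia. They were measured by RNA sequencing of brain punches from C57BL/6 mice in 12 libraries, 3 per group. The groups were early socially isolated VTA, group-housed VTA, early socially isolated BLA and group-housed BLA, and the design text assigns the BLA libraries to males and the VTA libraries to females. Region and sex therefore cannot be told apart in any contrast between BLA and VTA. The labels name the regions only by these abbreviations, give the tissue as cerebrum, give no age and no length of isolation, and do not say whether a library is 1 animal or a pool, so the tests weigh group differences against library-to-library variation that may in part be technical.

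Corticosterone, the main glucocorticoid of mice, binds a cytosolic receptor held by Hsp90 and its co-chaperones. The bound receptor moves to the nucleus and attaches as a dimer to glucocorticoid response elements, palindromes of a short half-site. In the brain the induced genes include feedback regulators of the receptor, inhibitors of growth factor and inflammatory signalling, and metabolic enzymes, and many respond in glia and blood vessels as well as in neurons.

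Promoter windows of 300 bases from RefSeq (GRCm38.p6), running from 250 bases before to 50 bases after an annotated start, were found for 9 of the 10 genes (17 windows), and 3 are shown because the receptor binds such elements near the genes it induces. The half-site AGAACA, read on both strands, occurred in 4 of the 17 windows, 3 of Sgk1 and 1 of Tsc22d3, and in 19% of all 32851 promoter windows. The palindromic core, GNACA and TGTNC with any 3 bases between them, occurred in 1 member window and in 0.475% of all windows. The full palindrome, AGAACA and TGTTCT with any 3 bases between them, holds the core and a pair of half-sites. It began 189 bases before the start in that same Sgk1 window and was found in 3 of all 32851 windows (0.00913%). The E-box CACGTG was found in 2 of the 17 windows, 1 of Sgk1 and 1 of Fkbp5, and in 7.15% of all windows. The exact letters GGGAC followed directly by TTTCC, a form of the NF-kB site, were found in 0 of the 17 and 0.155% of all. Other forms of the NF-kB site were not searched, so their presence in these windows is not known. In the lines that follow, capitals mark the half-sites and the core, and Fkbp5, the widely used reporter of glucocorticoid action, is shown as a window without either.
Sgk1, chr10:21993640-21993939, plus strand: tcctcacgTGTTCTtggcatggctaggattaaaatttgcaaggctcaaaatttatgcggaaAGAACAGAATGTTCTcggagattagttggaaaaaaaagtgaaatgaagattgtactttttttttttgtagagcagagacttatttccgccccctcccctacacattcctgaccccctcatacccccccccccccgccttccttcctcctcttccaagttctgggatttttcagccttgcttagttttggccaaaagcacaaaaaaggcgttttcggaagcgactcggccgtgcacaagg
Tsc22d3, chrX:140600473-140600772, minus strand: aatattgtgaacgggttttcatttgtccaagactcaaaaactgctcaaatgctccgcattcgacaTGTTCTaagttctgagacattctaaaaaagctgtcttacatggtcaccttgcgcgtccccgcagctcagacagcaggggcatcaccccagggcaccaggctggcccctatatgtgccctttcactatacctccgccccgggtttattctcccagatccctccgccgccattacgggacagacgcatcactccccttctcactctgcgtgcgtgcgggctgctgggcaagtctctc
Fkbp5, chr17:28486100-28486399, minus strand: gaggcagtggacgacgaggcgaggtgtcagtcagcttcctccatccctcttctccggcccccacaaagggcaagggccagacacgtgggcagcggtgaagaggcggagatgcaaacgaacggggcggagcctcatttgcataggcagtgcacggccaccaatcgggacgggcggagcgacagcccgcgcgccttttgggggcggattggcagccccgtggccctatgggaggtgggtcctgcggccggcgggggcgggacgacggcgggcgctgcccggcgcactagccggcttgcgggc
In mm10 the Sgk1 gene spans chr10:21882184-21999903, Fkbp5 chr17:28399094-28517527 and Tsc22d3 chrX:140539528-140600659. The windows shown for Sgk1 and Fkbp5 thus belong to starts inside the annotated genes. That of Tsc22d3 overlaps the upstream end of its gene. A letter match is a description of the window, and elements outside these windows were not searched.

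The libraries held 28277721 to 69270051 counts in all, and single values of the 10 genes ran from 27 counts for Plin4 in group-housed BLA library 2 to 10518 counts for Tsc22d3 in isolated VTA library 2. Levels are given as CPM, counts relative to the library total after scaling with TMM factors over the 12 libraries. The dopamine transporter gene Slc6a3 ran from 231 to 520 CPM in VTA and did not exceed 1.09 CPM in BLA, and Xist and Ddx3y separated the libraries by the sexes in the design text. Ribosomal RNA reads, counted at Lars2, Gm15564 and CT010467.1, made up 18.6% of isolated BLA library 3 and 28.6% and 41.8% of group-housed BLA libraries 1 and 2, and no more than 1.57% of any other. Ttr, the transthyretin of the choroid plexus, stood at 205 and 3106 CPM in isolated VTA libraries 1 and 3 and at 2.70 CPM in isolated library 2, and never above 0.892 CPM in group-housed VTA.

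The first question was whether the genes responded to isolation in the VTA of females. All 10 had a positive log2 fold change, as did 49.8% of the 24081 genes tested, with a median of 0.41 against 0.00 over all genes, and in 8 of the 10 every isolated library lay above every group-housed one. The share of all genes with isolated libraries wholly above was 12.6%. The 10 genes were chosen with earlier results of these data known, so their higher count is a description and not a test. The 10 were measured in the same libraries and are not to be taken as independent outcomes. In VTA each correlated with the mean of the other members, from 0.53 for Ddit4 to 0.96 for Fkbp5. Those values span both housing groups and include the difference between them, so they do not show how the genes vary together within a group. None of the 10 passed the edgeR quasi-likelihood test with Benjamini-Hochberg adjustment (0 of 10, adjusted p from 0.236 to 0.834), where 0.00415% of all genes did. At an unadjusted p under 0.05 stood 8 of the 10, all of them higher, against 18.3% of all genes in either direction and 8.73% higher. Without isolated VTA library 2, edgeR called Klf9 (adjusted p = 0.0392), Nfkbia (adjusted p = 0.0451) and Tsc22d3 (adjusted p = 0.0492), in a fit that called 1200 genes. The fits that left out any other VTA library called 0 of the 10. The count of 8 at an unadjusted p under 0.05 was 6 without isolated library 1 or 3, 3 without group-housed library 1 or 2, and 4 without group-housed library 3. How many of all genes stood there in these fits was not counted.

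**Figure D1:**
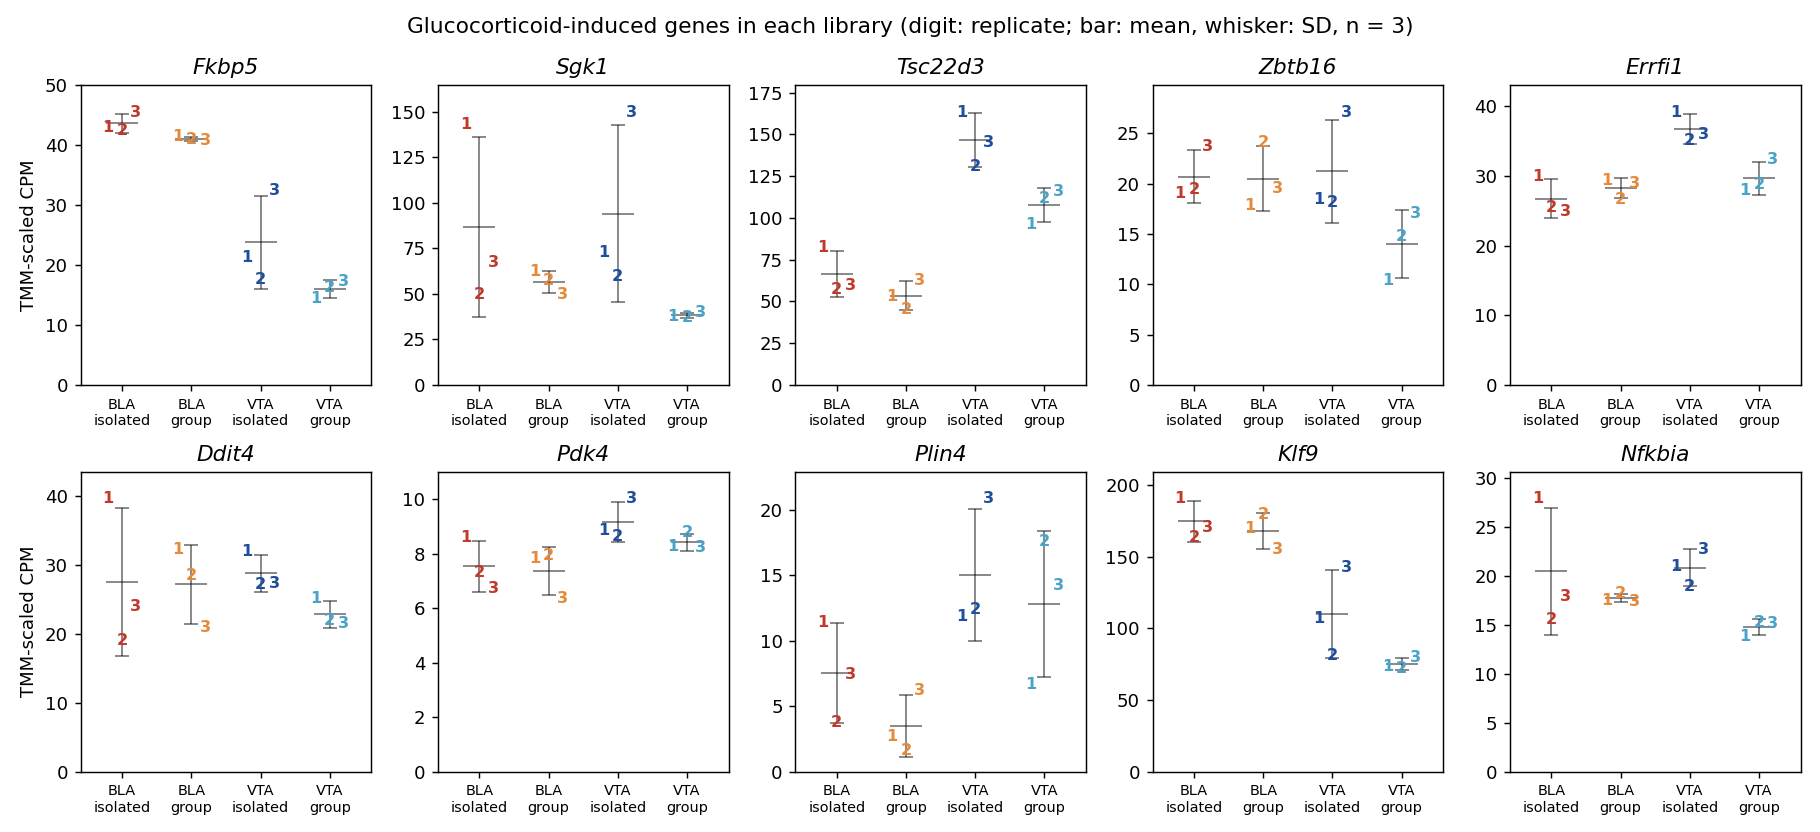
TMM-scaled CPM (y axis) of each of the 10 genes in the 4 groups (x axis); each digit is the replicate number of a library, the bar is the mean and the whisker the SD (n = 3). In VTA the isolated libraries lie wholly above the group-housed ones in 8 panels, and in BLA only in that of Fkbp5.

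Fkbp5 encodes a co-chaperone of Hsp90 that lowers the hormone affinity of the receptor and so closes a feedback loop. It lay at 21.3, 17.6 and 32.5 CPM in isolated VTA libraries 1, 2 and 3, against 14.4, 16.2 and 17.3 CPM in the group-housed ones. The groups did not overlap, but isolated library 2 exceeded the highest group-housed library by little, and isolated library 3 stood far above the rest. The log2 fold change was 0.52 (SE 0.21, edgeR adjusted p = 0.263), and 0.24 without isolated library 3.

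The kinase and the signalling inhibitors followed. Sgk1, a serum- and glucocorticoid-regulated kinase that acts on ion channels and transporters, had the largest difference of the 10, at 72.9, 59.8 and 149.8 CPM in isolated VTA against 37.7, 37.2 and 39.8 CPM in group-housed VTA. All isolated libraries were clearly apart from the tightly grouped group-housed ones. Its log2 fold change was 1.24 (SE 0.36, edgeR adjusted p = 0.236), and 0.74 without isolated library 3. Errfi1, an inhibitor of the EGF receptor also known as Mig6, lay at 39.1, 35.1 and 35.999 CPM in isolated VTA against 27.9, 28.8 and 32.4 CPM in group-housed VTA, a log2 fold change of 0.25 (SE 0.08, edgeR adjusted p = 0.236). Ddit4, or Redd1, which restrains the growth kinase complex mTORC1, lay at 31.95, 27.1 and 27.4 CPM in isolated VTA against 25.1, 21.9 and 21.6 CPM in group-housed VTA, a log2 fold change of 0.27 (SE 0.10, edgeR adjusted p = 0.245). In both genes the isolated libraries were all higher, with isolated library 1 the highest.

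Tsc22d3 and Nfkbia restrain inflammatory transcription. Tsc22d3 encodes GILZ, a leucine zipper protein that binds NF-kB and AP-1, and lay at 163, 131 and 145 CPM in isolated VTA against 96.3, 111 and 116 CPM in group-housed VTA. The lowest isolated library was thus above the highest group-housed one, and the log2 fold change was 0.38 (SE 0.10, edgeR adjusted p = 0.236). Nfkbia encodes the inhibitor that keeps NF-kB in the cytosol, and lay at 20.9, 18.9 and 22.6 CPM in isolated VTA against 13.8, 15.2 and 15.2 CPM in group-housed VTA. It had the smallest p of the 10 in edgeR, with a log2 fold change of 0.44 (SE 0.10, adjusted p = 0.236). DESeq2 called these genes alone among the 10, Nfkbia at an adjusted p = 0.0159 and Tsc22d3 at an adjusted p = 0.0482, in a fit that called 485 genes in all.

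The transcription factors also differed between isolated libraries. Klf9, a Krüppel-like repressor induced by glucocorticoid and thyroid hormone, lay at 107, 81.3 and 142 CPM in isolated VTA against 73.7, 72.2 and 79.8 CPM in group-housed VTA. Zbtb16, the zinc finger repressor PLZF, lay at 18.4, 18.1 and 27.1 CPM in isolated VTA against 10.4, 14.7 and 17.0 CPM in group-housed VTA. Both were highest in isolated library 3 and separate between the groups, with log2 fold changes of 0.49 (SE 0.18, edgeR adjusted p = 0.251) for Klf9 and 0.54 (SE 0.22, edgeR adjusted p = 0.264) for Zbtb16. Without isolated library 3 these were 0.27 for Klf9 and 0.33 for Zbtb16.

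The metabolic genes showed no such separation. Pdk4, a kinase that shuts off pyruvate dehydrogenase, lay at 8.87, 8.64 and 10.02 CPM in isolated VTA against 8.28, 8.78 and 8.22 CPM in group-housed VTA, with a log2 fold change of 0.07 and a 95% interval from -0.20 to 0.34. Plin4, a coat protein of lipid droplets, lay at 11.9, 12.4 and 20.8 CPM in isolated VTA against 6.64, 17.6 and 14.2 CPM in group-housed VTA. Its groups overlapped widely, and the interval of its log2 fold change, from -0.80 to 1.15, leaves the direction undetermined. Plin4 overlaps Hdgfl2 on the opposite strand, Errfi1 overlaps the antisense 1700045H11Rik and Fkbp5 the antisense AC154912.1, and since the strand setting of the counting is not given in the sources used here, such pairs may share reads.

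**Figure D2:**
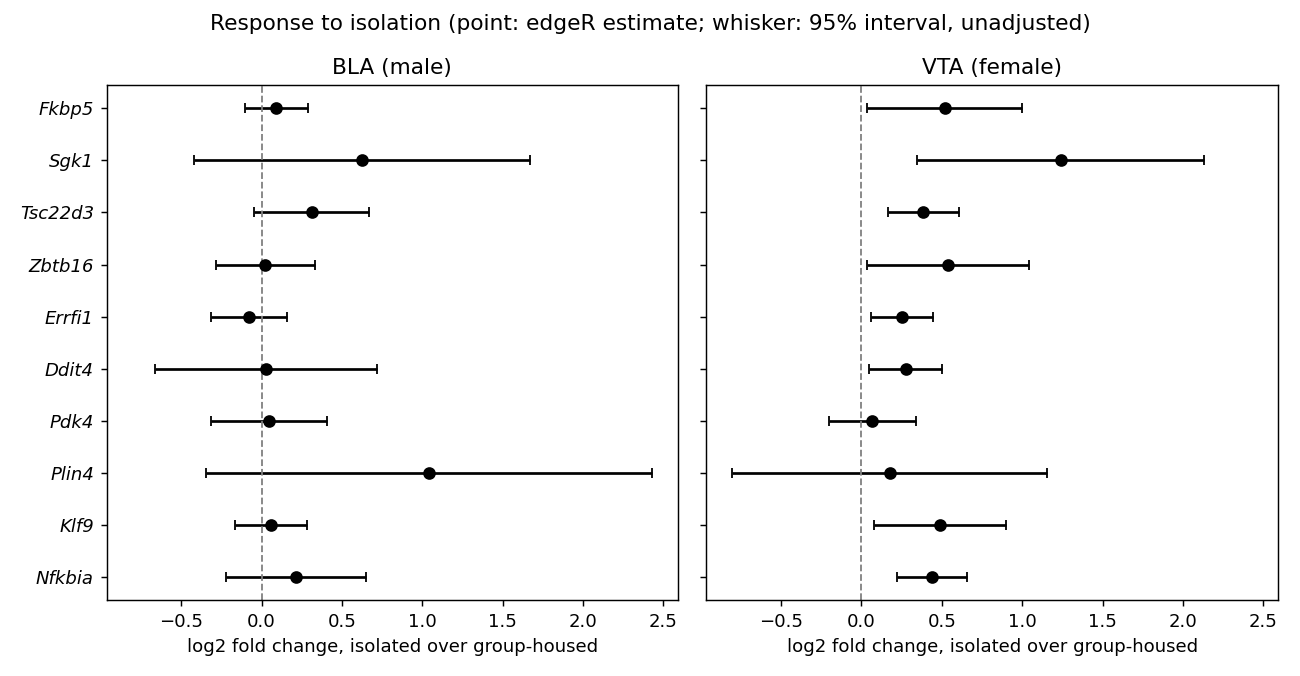
Log2 fold change of isolated over group-housed (x axis) for each gene (y axis) in BLA and in VTA; points are edgeR estimates and whiskers unadjusted 95% intervals. In VTA 8 intervals lie above 0, and in BLA all 10 include 0.

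Markers of several cell types were also higher in isolated VTA. All 9 oligodendrocyte markers were higher, with a summed level of 9885 to 13435 CPM in isolated VTA against 6784 to 11124 CPM in group-housed VTA and a median log2 fold change of 0.46. All 10 choroid plexus markers were higher, at 396 to 5306 CPM in isolated against 321 to 438 CPM in group-housed VTA. So were all 8 cortical glutamatergic markers, at 114 to 488 CPM in isolated against 88.6 to 89.1 CPM in group-housed VTA. These lists thus separated the groups for cortical markers but overlapped for oligodendrocyte and choroid plexus markers. Microglial markers were higher in 7 of 7, at 213 to 326 CPM in isolated against 202 to 235 CPM in group-housed VTA. Astrocyte markers were higher in 6 of 8, at 4093 to 4589 CPM in isolated against 3559 to 3836 CPM in group-housed VTA. The astrocyte sums thus did not overlap either. Dopamine neuron markers were higher in 3 of 6, at 793 to 1051 CPM in isolated against 609 to 1307 CPM in group-housed VTA. Striatal markers were higher in 6 of 8, at 79.2 to 322 CPM in isolated against 78.9 to 90.2 CPM in group-housed VTA, and endothelial markers in 4 of 8, at 238 to 297 CPM in isolated against 213 to 314 CPM in group-housed VTA. No marker of these lists was at 0 in all libraries. In bulk tissue, more cells of a type and more RNA per cell cannot be told apart.

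With library 2, whose Ttr level was the lowest of the isolated libraries, as the only isolated one, 9 of 10 genes had a positive log2 fold change, the median was 0.22, and Sgk1 stood at 0.62 (SE 0.09, edgeR adjusted p = 0.476), while Fkbp5 stood at 0.12 and Klf9 at 0.09. The lone library is assumed there to vary like the others. The median was 0.27 in a fit that also held a choroid plexus score, the mean centred log2 level of that marker list, 0.17 with a cortical score, and 0.30 with an oligodendrocyte score. At an unadjusted p under 0.05 stood 4, 4 and 1 of the 10 genes in the fits with the choroid plexus, cortical and oligodendrocyte scores. The share of all genes under that limit was not counted in these fits, so the lower counts have no background to be set against. The fit without the Ttr-rich libraries and the oligodendrocyte score were chosen after the data were seen.

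The choroid plexus and cortical scores were highest in isolated library 3 among the VTA libraries. The cortical score ran from -0.07 to 2.36 in isolated and from -0.92 to -0.74 in group-housed VTA. It thus separated the housing groups, and its part cannot be told apart from that of housing. Why a log2 fold change shifted under these scores was not tested. With the choroid plexus score it was 0.07 for Fkbp5, 0.49 for Sgk1, 0.27 for Errfi1, 0.29 for Ddit4, 0.35 for Tsc22d3, 0.34 for Nfkbia, 0.08 for Klf9, 0.26 for Zbtb16, -0.019 for Pdk4 and -0.18 for Plin4. With the cortical score it ran from -0.43 for Plin4 to 0.38 for Tsc22d3, with Fkbp5 at -0.08, Klf9 at 0.00 and Sgk1 at 0.26. With the oligodendrocyte score, highest in isolated library 1, it ran from 0.12 for Errfi1 and Pdk4 to 1.20 for Sgk1. None of these values passed the adjusted test.

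**Figure D3:**
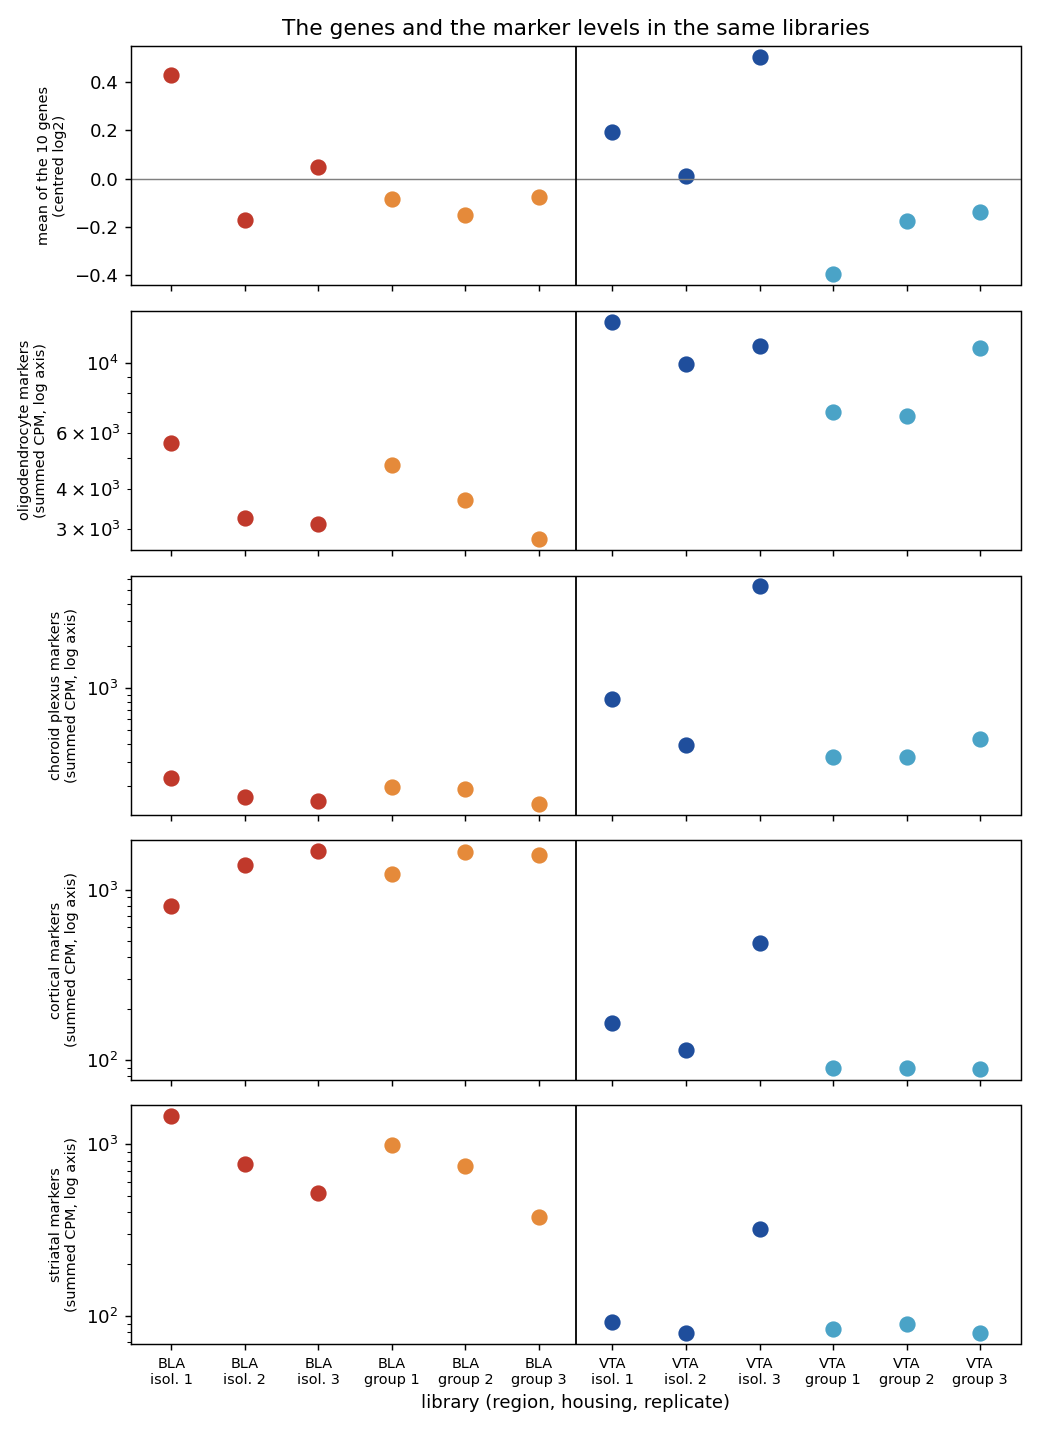
For each library (x axis), the mean of the 10 genes on the log2 scale, centred on the mean of its region, and the summed CPM of 4 marker lists on log axes; colours are the 4 groups. Isolated VTA library 3 is highest of the VTA libraries for the genes (0.51) and for choroid plexus, cortical and striatal markers. Isolated BLA library 1 is highest of the BLA libraries for the genes (0.43) and for oligodendrocyte, choroid plexus and striatal markers.

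The same question was asked for the BLA of males. Here 9 of 10 log2 fold changes were positive, as were 50.8% of those of the 22109 genes tested, with a median of 0.07 against 0.00 over all genes, and the range ran from -0.08 for Errfi1 to 1.04 for Plin4. None passed (0 of 10, edgeR adjusted p of 1 throughout, against 0% of all genes), 0 of 10 had an unadjusted p under 0.05 against 1.99% of all genes, limma voom also called 0 of 10, and so did DESeq2. The count at an unadjusted p under 0.05 was 3 without isolated BLA library 2, 2 without group-housed BLA library 3, and 0 without any 1 of the other 4 libraries. For all genes it was not counted in those fits. Isolated libraries lay wholly above group-housed ones in 1 of the 10, Fkbp5, where 4.23% of all genes did so.

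Fkbp5 was steady, at 43.0, 42.5 and 45.5 CPM in isolated BLA against 41.5, 41.0 and 40.8 CPM in group-housed BLA, and its 95% interval of -0.10 to 0.29 on the log2 scale bounds any change more tightly than for any other of the 10. Sgk1 lay at 142.7, 49.6 and 67.5 CPM in isolated BLA against 62.1, 57.2 and 49.9 CPM in group-housed BLA. Only isolated library 1 was high, and isolated library 2 was the lowest of all 6. Its log2 fold change of 0.63 (SE 0.42) was 0.06 without isolated library 1.

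Tsc22d3 lay at 82.5, 57.1 and 59.7 CPM in isolated BLA against 52.9, 45.3 and 62.5 CPM in group-housed BLA, with a log2 fold change of 0.31 (SE 0.16). Nfkbia lay at 27.8, 15.6 and 17.9 CPM in isolated BLA against 17.5, 18.2 and 17.4 CPM in group-housed BLA, with a log2 fold change of 0.21 (SE 0.19). In both the groups overlapped and isolated library 1 was the highest. Ddit4 repeated that shape, at 39.6, 19.1 and 23.98 CPM in isolated BLA against 32.2, 28.5 and 21.002 CPM in group-housed BLA, and its log2 fold change of 0.03 was -0.34 without isolated library 1.

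Plin4 had the widest spread, at 11.4, 3.78 and 7.47 CPM in isolated BLA against 2.68, 1.63 and 6.18 CPM in group-housed BLA, where the lowest value rests on 27 counts. Its 95% interval ran from -0.34 to 2.43. The other 4 genes differed little between groups that overlapped. Klf9 averaged 175 ± 13.99 CPM in isolated and 168 ± 12.5 CPM in group-housed BLA, and Zbtb16 20.7 ± 2.61 CPM in isolated and 20.5 ± 3.24 CPM in group-housed BLA (SD, n = 3 each). Errfi1 averaged 26.8 ± 2.81 CPM in isolated and 28.3 ± 1.45 CPM in group-housed BLA, and Pdk4 7.54 ± 0.947 CPM in isolated and 7.38 ± 0.876 CPM in group-housed BLA.

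Between the BLA groups, 8 of 8 striatal markers (median log2 fold change 0.44), 8 of 9 oligodendrocyte and 6 of 7 microglial markers were higher in isolated BLA. So were 0 of 8 cortical glutamatergic markers (median -0.27), 3 of 6 choroid plexus markers tested, 3 of 8 astrocyte and 3 of 8 endothelial markers. Isolated BLA library 1 was the highest of the 6 BLA libraries for 8 of the 10 genes. The same library had the highest summed level of striatal markers, 1455 CPM, where group-housed BLA ran from 377 to 989 CPM. It also had the highest level of oligodendrocyte markers, 5601 CPM against 2794 to 4757 CPM in group-housed BLA, and the lowest of cortical glutamatergic markers, 802 CPM against 1229 to 1658 CPM in group-housed BLA. This library was highest as well for choroid plexus markers, 229 CPM against 150 to 198 CPM in group-housed BLA. So it was for microglial markers, 413 CPM against 311 to 374 CPM in group-housed BLA. Without it 5 of 10 genes had a positive log2 fold change and the median was 0.02. With the choroid plexus, cortical or oligodendrocyte score in the fit, 5, 7 and 8 of 10 genes were positive, and the medians were 0.016, 0.060 and 0.070. Sgk1 stood at 0.17, 0.20 and 0.45 in those fits, and none of the 10 passed. Isolated library 1 had the highest choroid plexus and oligodendrocyte scores and the lowest cortical score of BLA. Why values shifted under these scores was not tested. Setting aside the 3 libraries with many ribosomal RNA reads leaves only 1 in the group-housed arm, assumed to vary like the rest, and in that fit, chosen after the data were seen, 8 of 10 were positive and the median was 0.24.

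**Figure D4:**
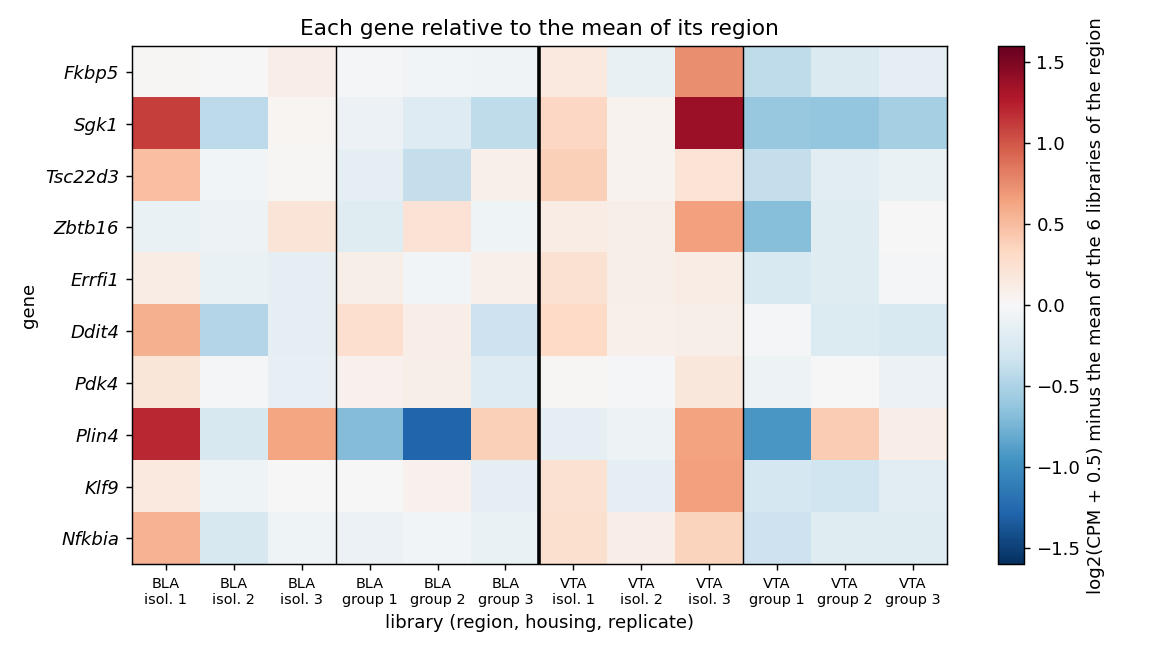
Each gene (rows) in each library (columns) as log2(CPM + 0.5) minus the mean of the 6 libraries of its region. Red is above and blue below that mean; isolated BLA library 1 and isolated VTA library 3 hold most of the strong red cells, and Sgk1 is among them in both.

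The responses of the 2 regions were then compared directly, as the BLA response minus the VTA response. The difference was negative for 9 of 10 genes, as for 55.3% of the 25009 genes tested, with a median of -0.35 against -0.06 over all genes. None passed (0 of 10, edgeR adjusted p from 0.303 to 0.866, and 0% of all genes), so a different response of the regions was not shown for any of them. At an unadjusted p under 0.05 stood 2 of 10, Errfi1 at -0.39 (SE 0.14, edgeR adjusted p = 0.303) and Klf9 at -0.49 (SE 0.21, edgeR adjusted p = 0.319), against 14.9% of all genes. That count was 6 with limma voom, 4 with the replicate block and 1 with the choroid plexus or cortical score. It ran from 1 to 5 over the fits that left out 1 library, and the share of all genes was not counted in these alternatives. DESeq2 called 0 of the 10. With the choroid plexus or the cortical score as a covariate the median difference was -0.08 or -0.05. It was -0.21 without isolated VTA library 3, and ran from -0.50 to -0.21 over the 12 fits that left out 1 library.

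The levels of 5 of the genes differed without isolation between VTA of females and BLA of males, where region and sex cannot be told apart. In group-housed VTA against group-housed BLA, edgeR with Benjamini-Hochberg adjustment called 5 of 10 genes, 2 higher and 3 lower, where it called 37.2% of all genes, 17.3% higher and 19.9% lower. Fkbp5 averaged 16.0 ± 1.49 CPM in group-housed VTA and 41.1 ± 0.338 CPM in group-housed BLA (SD, n = 3 each), a log2 fold change of -1.36 (SE 0.17, edgeR adjusted p = 3.61e-05). Klf9 averaged 75.2 ± 4.04 CPM in VTA and 168 ± 12.5 CPM in BLA, a log2 fold change of -1.16 (SE 0.15, edgeR adjusted p = 5.53e-05). Tsc22d3 was higher in VTA, at 108 ± 10.3 CPM in VTA and 53.6 ± 8.61 CPM in BLA, a log2 fold change of 1.01 (SE 0.15, edgeR adjusted p = 0.000137). Oligodendrocyte markers summed to 6784 to 11124 CPM in group-housed VTA and 2794 to 4757 CPM in group-housed BLA, and their part in these level differences was not tested.

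The calls of Fkbp5, Klf9 and Tsc22d3 remained when any 1 of the 12 libraries was left out. Zbtb16, lower in VTA at -0.54 (SE 0.20, edgeR adjusted p = 0.0472), lost the call in 6 of those 12 fits, namely without isolated BLA library 1 or 2, group-housed BLA library 2 or 3, or group-housed VTA library 1 or 2 (edgeR adjusted p over the 12 fits from 0.0179 to 0.188). Plin4, higher in VTA at 1.80 (SE 0.58, edgeR adjusted p = 0.0384), lost it in 7, namely without isolated BLA library 3, group-housed BLA library 1 or 2, isolated VTA library 1 or 2, or group-housed VTA library 2 or 3 (edgeR adjusted p from 0.0155 to 0.124). Both also lost it without the low-count filter (edgeR adjusted p = 0.0691 for Plin4 and 0.0844 for Zbtb16), and Zbtb16 without the loci rich in ribosomal RNA reads (edgeR adjusted p = 0.0526). Sgk1, Errfi1, Ddit4, Pdk4 and Nfkbia did not pass (edgeR adjusted p from 0.234 to 0.635).

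Over the 4 groups the order of mean levels took a few shapes. Fkbp5 and Klf9 ran from isolated BLA through group-housed BLA and isolated VTA to group-housed VTA, with every neighbour separate for Fkbp5 and only both BLA groups overlapping for Klf9. Tsc22d3, Errfi1, Pdk4 and Plin4 had both VTA groups on top, separate from BLA for Tsc22d3 only. Sgk1, Zbtb16, Ddit4 and Nfkbia had isolated VTA at the top and group-housed VTA at the bottom. Neighbours in that order overlapped, except that group-housed VTA lay wholly below group-housed BLA for Sgk1, Zbtb16 and Nfkbia. Sgk1 and Nfkbia did not pass the edgeR test between these groups. How many of all genes had neighbours separate in this way was not counted, so these separations are a description. Per kilobase of merged exon in the mm10 annotation, the highest level was that of Klf9 in BLA, at 36.2 CPM per kb in isolated and 34.9 CPM per kb in group-housed BLA. In VTA it was that of Tsc22d3, at 33.8 CPM per kb in isolated and 24.9 CPM per kb in group-housed VTA. Fkbp5, with 9.47 kb of exon, stood at 2.52 CPM per kb in isolated VTA and 1.69 CPM per kb in group-housed VTA, the lowest of the 10 in VTA, next to Plin4 and Pdk4.

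Other genes known to be induced by glucocorticoids were counted from a list of 24, of which 23 were tested in each region. In VTA 20 of 23 had a positive log2 fold change (49.8% of all genes), with a median of 0.20, and 8 had isolated libraries wholly above group-housed ones (12.6% of all genes). At an unadjusted p under 0.05 stood 5 of 23 in either direction, against 18.3% of all genes in either direction and 8.73% higher. The 4 with the smallest p, named next, were all higher, and 0 of 23 passed. Of the 4 with the smallest p, Arl4d, a small GTPase, averaged 10.4 ± 3.75 CPM in isolated and 4.59 ± 0.960 CPM in group-housed VTA (SD, n = 3 each; log2 fold change 1.12, SE 0.28, edgeR adjusted p = 0.236). Arl4d alone of the 4 passed with DESeq2, at an adjusted p = 0.00705, and in edgeR without isolated VTA library 2, at an adjusted p = 0.0281. Mt2, a metal-binding metallothionein, averaged 10.9 ± 1.61 CPM in isolated and 7.48 ± 1.24 CPM in group-housed VTA, a log2 fold change of 0.49 (SE 0.16). Hif3a, a hypoxia-inducible factor subunit, averaged 2.88 ± 0.444 CPM in isolated and 1.83 ± 0.316 CPM in group-housed VTA, a log2 fold change of 0.60 (SE 0.22). Rhob, another small GTPase, averaged 167 ± 21.2 CPM in isolated and 129 ± 21.1 CPM in group-housed VTA, a log2 fold change of 0.31 (SE 0.13). In BLA 18 of 23 were positive (50.8% of all genes) with a median of 0.08 and 0 passed or had an unadjusted p under 0.05. The smallest p there belonged to Sult1a1, a sulfotransferase, at 0.38 (SE 0.23), Mt2 at 0.28 (SE 0.18), the proteoglycan gene Sdc4 at 0.18 (SE 0.13) and Dusp1, a phosphatase of MAP kinases, at -0.35 (SE 0.30).

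The receptor machinery was counted from a list of 15 genes, all tested in each region. Nr3c1, the glucocorticoid receptor, averaged 141 CPM in isolated and 130 CPM in group-housed VTA, with a log2 fold change of 0.05 and a 95% interval from -0.16 to 0.26, and 147 CPM in isolated and 147 CPM in group-housed BLA, with an interval from -0.20 to 0.20. Nr3c2, the mineralocorticoid receptor, had log2 fold changes of 0.14 (SE 0.11) in VTA and 0.01 (SE 0.14) in BLA. Of the 15, 13 were positive in VTA (49.8% of all genes) with a median of 0.12. In BLA 5 were positive (50.8% of all genes) with a median of -0.05. An unadjusted p under 0.05 was held by 1 of 15 in each region, against 18.3% of all genes in VTA and 1.99% in BLA, and 0 passed. Isolated libraries lay wholly above group-housed ones for 5 of 15 in VTA (12.6% of all genes) and 1 of 15 in BLA (4.23%). With the smallest p in VTA stood the coactivator Ncoa1 at 0.25 (SE 0.10), the chaperone Hspa8 at 0.20 (SE 0.09), Hsd11b1, the enzyme that regenerates active glucocorticoid, at 0.31 (SE 0.17), and the co-chaperone Stip1 at 0.18 (SE 0.10). In BLA they were Stip1 at -0.24 (SE 0.11), the drug efflux pump gene Abcb1a at 0.19 (SE 0.10), the co-chaperone Fkbp4 at -0.16 (SE 0.09) and the corepressor Ncor1 at -0.16 (SE 0.13).

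The genes outside the set whose pattern was most like the mean of the 10, by Pearson correlation of region-centred log2 CPM over the 12 libraries among 16645 genes of at least 1 CPM, were Snx9, Fam83d, Shank3, Rin2 and Ssfa2. Their correlations ran from 0.92 to 0.95, as a description of these libraries, which share region, depth and the uneven marker levels given above. Snx9 lay at 18.5, 16.3 and 19.97 CPM in isolated VTA against 14.996, 16.2 and 15.998 CPM in group-housed VTA. It had its BLA maximum in isolated library 1 at 13.2 CPM, against 10.5 to 11.8 CPM in group-housed BLA.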

How the data were processed

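The deposited values are raw counts per gene. The tools listed in the submitters' processing notes are cutadapt, HTSeq and TopHat2, without versions, and the build listed is mm10. Per the labels' protocols, Trizol RNA was made into stranded total RNA libraries after ribosomal depletion. The sources used here give neither annotation nor strand setting. The table of the whole series was used; 2 of its entries, neither a member, do not match the tables of single samples.

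Genes passing filterByExpr (minimum count 10, minimum total 15) were scaled by TMM and tested in edgeR 4.0.16 (R 4.3.3, quasi-likelihood, robust) on the 6 libraries of a region, or on all 12 for the difference and for the region contrast, with Benjamini-Hochberg adjustment over all genes tested (threshold 0.05). Printed CPM use factors over 12 libraries, which shift VTA differences by 0.06 on the log2 scale relative to the fit. Alternatives used DESeq2 1.42.0, limma 3.58.1, other factors and filters, a replicate block, covariates and left-out libraries. The scripts were tested on simulated counts. All 10 members are named, and from the other lists the 4 smallest p per region. The members and lists were chosen with earlier results of these data known. Figures were drawn with matplotlib 3.10.9.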

Additional observations from a re-analysis of the deposited data

How the results depend on the processing

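The numbers of the 10 genes called in BLA (0), and for the difference between regions (0), were the same under every alternative run. In VTA the number was 2 with DESeq2 and 0 to 3 when 1 library was left out, and 0 under every other setting. For VTA against BLA it was 3 without the low-count filter, 4 without the loci rich in ribosomal reads, 3 to 5 when 1 library was left out, and 5 otherwise. The cause of these shifts was not tested.

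Over all genes, the VTA count of 1 became 485 with DESeq2, 2 with limma voom, 17 without the low-count filter, 0 with the replicate block, 0 with the choroid plexus, cortical or oligodendrocyte score and without the Ttr-rich libraries, and 0 to 1200 when 1 library was left out. The BLA count of 0 became 6 with DESeq2, 8 without the filter, 2 with the choroid plexus score, 1 without the libraries rich in ribosomal reads, and 0 to 4 with 1 library left out. The count for the difference became 138 with DESeq2, 1 without the filter, 1 with the replicate block, and 0 to 487 with 1 library left out. The median of the 10 was 0.17 in VTA with the cortical score, and that of the difference -0.076 with the choroid plexus and -0.052 with the cortical score.

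Same-numbered libraries correlated between 0.43 and -0.12 in BLA and between 0.03 and -0.11 in VTA in their deviations from group means. Libraries of unlike number correlated between 0.32 and -0.32 in BLA and between 0.23 and -0.20 in VTA. These few values do not settle whether the numbers pair the libraries. The replicate block called 0 of the 10 genes in VTA, as the main fit did. In BLA 2 of the 10 had an unadjusted p under 0.05 with the block, and 0 in the main fit. Plin4 in BLA was at 1.17 (SE 0.31) with the block and 1.04 (SE 0.57) in the main fit.

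Log2 fold changes changed sign as follows. In VTA they were -0.080 for Fkbp5 with the cortical score, -0.019 and -0.060 for Pdk4 and -0.18 and -0.43 for Plin4 with the choroid plexus and cortical scores, -0.070 for Plin4 without the Ttr-rich libraries, and -0.056 for Hsd11b1 with the oligodendrocyte score. In BLA Ddit4 was at -0.20 with limma voom, -0.016 with the replicate block, and -0.29, -0.24 and -0.059 with the choroid plexus, cortical and oligodendrocyte scores. Klf9 was at -0.010, Nfkbia at -0.0047 and Pdk4 at -0.067 with the choroid plexus score, and Pdk4 at -0.034 with the cortical one. Without the libraries rich in ribosomal reads Dusp1 was at 0.25 and Zbtb16 at -0.024. For the difference, Fkbp5 was at 0.12 with the cortical score, and Pdk4 at 0.042 and Sgk1 at 0.10 with the choroid plexus score. With 1 library left out, BLA values ran from -0.34 to 0.24 for Ddit4, -0.59 to 0.011 for Dusp1, -0.0097 to 0.11 for Klf9, -0.080 to 0.38 for Nfkbia, -0.059 to 0.11 for Pdk4 and -0.089 to 0.15 for Zbtb16, and VTA values from -0.14 to 0.46 for Plin4. Of all values of single genes, 303 of 324 in BLA, 308 of 324 in VTA, 207 of 210 for the difference and 174 of 190 for VTA against BLA kept both direction and side of the threshold. In VTA 7 newly passed, and for VTA against BLA 16 no longer did. The lowest count behind any value of the 10 genes was 27, so depth limits Plin4 in BLA most.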
